A study of Mus musculus with 5 samples.

Results

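Semaphorins, ephrins, netrins and slits, with the receptors that read them, were followed in RNA of mouse optic nerves kept in culture with a lower or a higher dose of LY294002. The genes were those whose symbol in the array annotation begins with Sema3 to Sema7, Plxna to Plxnd, Nrp1 or Nrp2, Epha or Ephb, Efna or Efnb, Ntn, Unc5a to Unc5d, Slit1 to Slit3 or Robo1 to Robo4. This took 69 genes of the 18193 genes that a probe set of the array names alone, on 150 of 45101 probe sets. *Unc5cl* and *Plxna4os1*, the latter named as an antisense transcript of *Plxna4*, match the letters of the rule without being receptor genes of these families, and neither was bright enough to be tested. *Ephb2* was not analysed here. The nerves came from C57BL/6 mice of P35 to P45, were taken with the retina attached, cleaned of arachnoid and cultured for 3 days. All nerves analysed here received LY294002, a small molecule that inhibits PI3K and, depending on dose, other kinases and bromodomain proteins. There were 3 arrays of L-LY29, labelled 0.5 µM, and 2 arrays of H-LY29, labelled 50 µM. The study's methods give a higher L-LY29 concentration for nerves of this age than the labels do, and the labels write the agent both as LY294002 and as LY295002. Arrays of untreated nerves were not analysed here, so every difference is L-LY29 minus H-LY29 in log2 units and not a change from the untreated nerve. The methods give a total of nerves and mice for the transcriptomic work but not how they were divided among the arrays, so the tests measure the spread between these arrays, and their number limits the precision.

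Guidance cues were found as signals that attract or repel growing axons, and they also steer the migration of oligodendrocyte progenitors along the optic nerve and the sprouting of vessels. Class 3 semaphorins are secreted and bind neuropilins, which pass the signal on through A-type plexins, whereas most other semaphorins sit in the membrane and bind plexins directly. Ephrin-A ligands are held in the membrane by a lipid anchor and ephrin-B ligands by a transmembrane segment, and both engage Eph receptor tyrosine kinases on the neighbouring cell, with signalling in each direction. Netrins act through DCC and Unc5 receptors, and slits through Robo receptors. In an optic nerve the cell bodies of the axons lie in the retina, so RNA of the nerve itself comes mainly from glia, vessels and the sheath. These nerves were taken with the retina attached. Markers of the ocular surface epithelium also had summed linear signals of 5346 to 33336 on L-LY29 arrays, against 371 to 427 on H-LY29 arrays. In such bulk RNA, fewer cells of a type and less RNA per cell cannot be told apart.

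The arrays of the 2 doses stood apart as wholes. Arrays of 1 dose correlated at 0.990 to 0.995 over all probe sets, and arrays of different doses at 0.882 to 0.892. The median signal was 5.33 to 5.35 on L-LY29 arrays and 5.54 to 5.56 on H-LY29 arrays. Bacterial poly-A RNAs, which the Affymetrix protocol adds before labelling, averaged 9.97 to 10.45 on L-LY29 arrays and 3.17 on both H-LY29 arrays, where their brightest probe set reached 4.30. For actin, the 3′ probe set was brighter than the 5′ one, by 0.43 on average on L-LY29 arrays and by 0.92 on H-LY29 arrays. The same 3′ minus 5′ difference was −0.13 and 0.69 for Gapdh and 2.14 and 3.76 for pyruvate carboxylase, so it was larger in H-LY29 for all 3 control transcripts. Of the 150 guidance probe sets, 76 held a value that was equal to the last digit on at least 2 arrays (50.7%, against 46.3% of all probe sets), and 11 were equal on all 3 L-LY29 arrays. Ties within a dose narrow the spread on which the test rests, and a tie between doses makes them overlap. Arrays of different doses shared a value on 33 of the 150, against 19.4% of all probe sets. The brightest probe sets of *Epha2*, *Ephb1*, *Ephb3*, *Epha4*, *Efna4* and *Ntn4* were among these. The part of these array differences in the results on guidance genes was not tested.

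Guidance genes differed between the doses in both directions, and 66.0% of those tested were called. A gene was represented by its brightest probe set, and 53 of the 69 passed a minimum mean signal of 4.77. By limma, L-LY29 was above H-LY29 for 12 of the 53 (22.6%) and below it for 23 (43.4%), while 18 did not pass an adjusted p of 0.05. Over all 12935 genes tested, 27.1% were higher and 46.6% lower, 73.8% in all. The median difference of the guidance genes was −0.23, against −0.26 for all genes. No overlap between the doses was seen for 40 of the 53 genes, against 83.1% of all genes. Ligands had 6 genes higher and 15 lower of 30, and receptors 6 higher and 8 lower of 23. Quantile normalization moved the median of all genes from −0.26 to 0.06 and that of guidance genes to −0.01, with 18 higher and 18 lower, so that 50.0% of the called guidance genes were higher in place of 34.3%. With equal array medians 16 were higher and 21 lower (43.2% of those called were higher), and the median of all genes was −0.05. Among the 53, 3 genes, *Sema3a*, *Robo1* and *Unc5a*, had every array of 1 dose under the minimum signal and were tested only through the dose at which they were high, so a difference was built into their selection. Of the 35 called genes, 19 kept both their direction and their call under every alternative that gave them a value: *Sema3a*, *Sema4b*, *Sema4c*, *Sema4g*, *Sema6a*, *Sema6b*, *Sema7a*, *Plxna1*, *Plxnb3*, *Nrp2*, *Epha10*, *Efna2*, *Efnb2*, *Efnb3*, *Ntn1*, *Unc5a*, *Unc5c*, *Slit2* and *Robo1*. *Slit1* kept them in all but the one that also asked for a fold over 1.8. Among the 19, only *Sema6a*, *Sema7a*, *Plxnb3*, *Nrp2*, *Efna2*, *Efnb2*, *Unc5c* and *Slit2* had more than 1 tested probe set. For the others the second brightest probe set gave no value and the mean of probe sets repeated the main one, so these 2 alternatives could not test them.

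**Figure D1:**
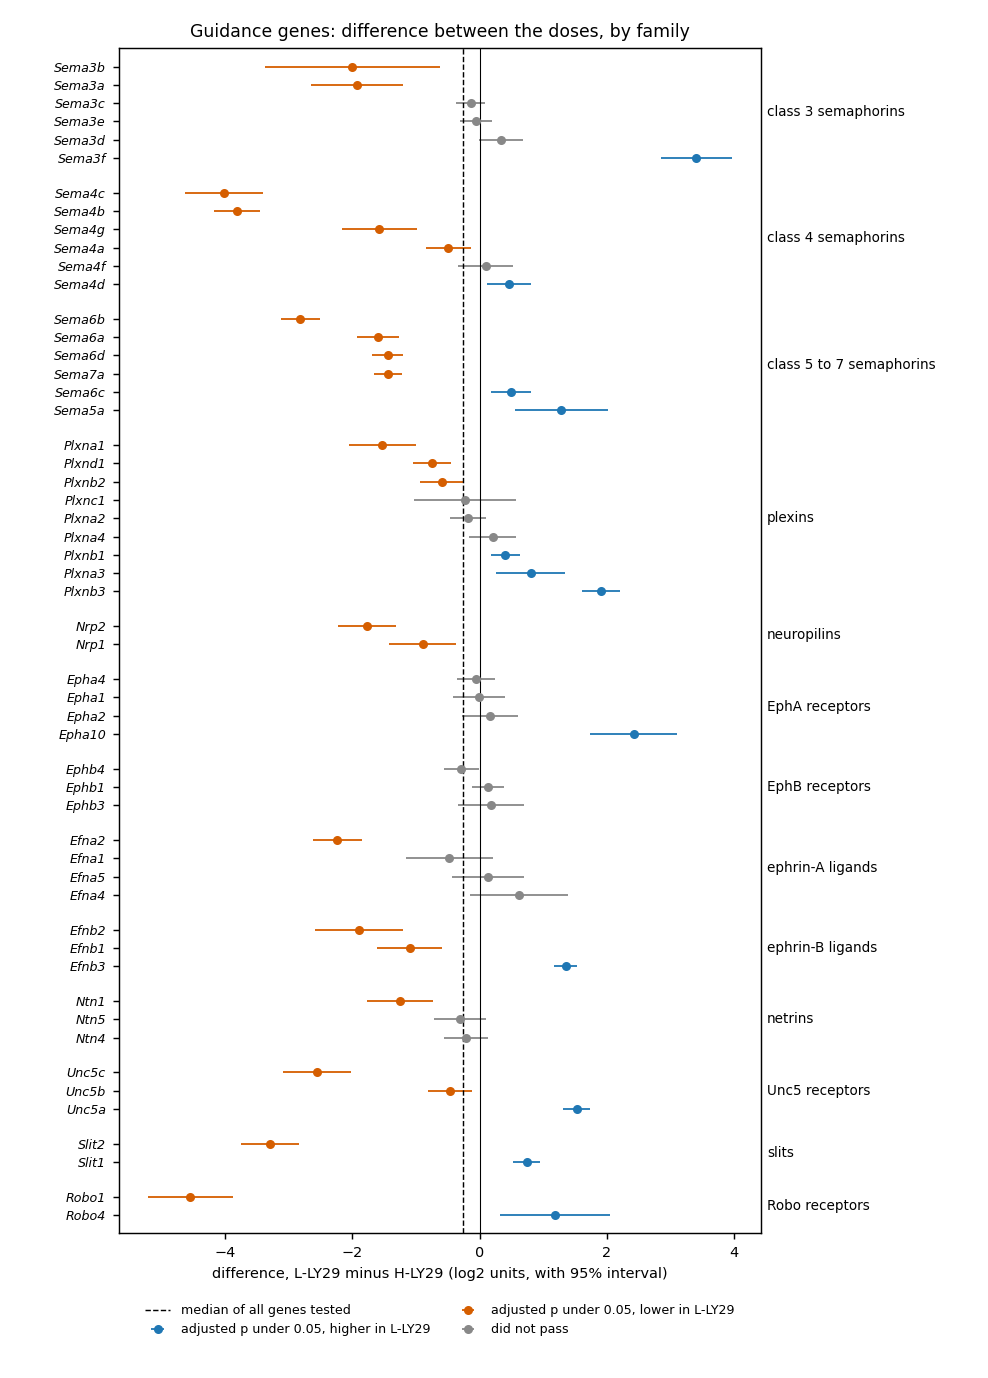
Difference between the doses, L-LY29 minus H-LY29 in log2 units (points, with the 95% interval of the limma fit as bars), for the 53 tested guidance genes ordered by family, with colours for the call and a dashed line at the median of all genes tested, −0.26. *Robo1*, at −4.55, and *Sema3f*, at 3.41, mark the ends of the range, and each family except the neuropilins, EphA and EphB receptors, ephrin-A ligands and netrins holds called genes on both sides of 0.

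Among the secreted class 3 semaphorins, *Sema3a* and *Sema3b* were lower and *Sema3f* was higher in L-LY29, and the other 3 tested members did not pass. Of all genes tested, 73.8% were called, 46.6% lower and 27.1% higher. *Sema3a*, the classical repellent of this class, had signals of 4.62, 4.62 and 4.62 on the L-LY29 arrays and of 7.01 and 6.09 on the H-LY29 arrays. All L-LY29 arrays lay below both H-LY29 arrays and under the minimum signal, which *Sema3a* passed only through H-LY29. The difference was −1.93 (SE 0.28, adjusted p = 0.00230 by limma). *Sema3f*, which signals mainly through neuropilin-2 and is known to attract oligodendrocyte progenitors, stood the other way round. Its signals were 9.97, 10.09 and 10.06 in L-LY29 against 6.29 and 6.98 in H-LY29, a difference of 3.41 (SE 0.21, adjusted p = 1.45e-04). This probe set carries the suffix _x_at, by which Affymetrix marks probes that may also bind other transcripts. The other tested probe set of *Sema3f* had a difference of −0.17 and did not pass. *Sema3b* had signals of 6.55, 4.91 and 6.39 in L-LY29 and of 8.001 and 7.90 in H-LY29. Replicate 2 was the low one of the L-LY29 arrays, and the groups did not overlap. The difference was −2.00 (SE 0.53, adjusted p = 0.0205). The call on *Sema3b* was lost without H-LY29 replicate 1 or 2, at adjusted p = 0.157 and 0.144 by limma, and after quantile normalization, at 0.0545. *Sema3c*, *Sema3d* and *Sema3e* had differences of −0.14, 0.33 and −0.06. *Sema3d* passed without H-LY29 replicate 1 or 2, at 0.53 and 0.13, after quantile normalization, at 0.78, and with equal array medians, at 0.55, and its second tested probe set was higher in L-LY29, at 2.13 (adjusted p = 4.83e-04 by limma over probe sets).

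Class 4 semaphorins, transmembrane ligands that mostly address B-type plexins, held 2 of the larger differences towards H-LY29. *Sema4c* had signals of 5.63, 6.28 and 5.91 on the L-LY29 arrays and of 9.75 and 10.16 on the H-LY29 arrays. *Sema4b* had 6.05, 6.05 and 5.72 against 9.84 and 9.68. Both genes were thus low on every L-LY29 array. Their differences were −4.02 (SE 0.24, adjusted p = 1.23e-04 by limma) and −3.82 (SE 0.14, adjusted p = 5.11e-05). *Sema4g* had signals of 5.79, 5.39 and 5.62 in L-LY29 and of 7.48 and 6.87 in H-LY29. It was lower as well, at −1.57 (SE 0.23, adjusted p = 0.00233). *Sema4a* was at −0.49 on its brightest probe set, an _x_at one (adjusted p = 0.0229 by limma). That call ended without any 1 of the L-LY29 arrays (0.0614 to 0.0695) and with either scaling alternative. The difference of *Sema4a* was −0.31 without H-LY29 replicate 1. Its other tested probe set was lower as well, at −1.03 (adjusted p = 0.00150 by limma over probe sets). *Sema4d*, an inhibitor of oligodendrocyte differentiation that oligodendrocytes themselves make, was higher by 0.46 on its brightest probe set (adjusted p = 0.0272 by limma) and was at −2.50 on another. Without H-LY29 replicate 2 the brightest probe set gave 0.26, and it did not pass there nor without L-LY29 replicate 1 or 3. *Sema4f* did not pass on its brightest probe set, at 0.09, and had a difference of −2.55 on its second, an _x_at probe set (adjusted p = 9.13e-04 by limma over probe sets).

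Class 5 to 7 semaphorins were called for each of the 6 tested genes, 4 lower and 2 higher in L-LY29, where 73.8% of all genes were called, 46.6% lower and 27.1% higher. *Sema6b*, a ligand of A-type plexins, had signals of 5.53, 5.34 and 5.25 in L-LY29 and of 8.15 and 8.24 in H-LY29. *Sema7a*, which is held in the membrane by a lipid anchor and also binds integrins, had 8.98, 8.78 and 8.99 against 10.35 and 10.37. The L-LY29 arrays lay below both H-LY29 arrays for each of them, where 83.1% of all genes showed no overlap between the doses. The differences were −2.82 for *Sema6b* (SE 0.12, adjusted p = 6.25e-05 by limma) and −1.44 for *Sema7a* (SE 0.09, adjusted p = 1.32e-04), and both tested probe sets of *Sema7a* were lower. *Sema6a*, which acts in oligodendrocyte maturation, was at −1.60 (adjusted p = 3.01e-04), with its 3 tested probe sets all lower. Without H-LY29 replicate 1 or 2 another probe set of *Sema6a* was the brightest, at −0.33 and −0.61. *Sema6d* had signals of 8.97, 8.87 and 9.07 in L-LY29 and of 10.32 and 10.51 in H-LY29, a difference of −1.45 (SE 0.10, adjusted p = 1.68e-04 by limma). Its other tested probe set went the opposite way, at 1.09. *Sema5a*, a semaphorin with thrombospondin repeats that inhibits axon growth from oligodendrocyte lineage cells, had the higher signal in L-LY29, by 1.29 (SE 0.28, adjusted p = 0.0105). The difference of *Sema5a* was 0.85 without H-LY29 replicate 2, and its second tested probe set did not pass, at −0.22. *Sema6c* was higher by 0.50 on 1 probe set and by 4.19 on the other, where L-LY29 arrays had 7.74, 7.54 and 7.76 and H-LY29 arrays 3.82 and 3.16. Without H-LY29 replicate 1 or 2 that other probe set was the brightest and stood for *Sema6c*, at 4.52 and 3.86. The mean H-LY29 signal of that probe set, 3.49, was within the poly-A range, so these sizes are not read as folds. Both H-LY29 values of the probe set were under the minimum signal, so it was tested only through L-LY29. Without L-LY29 replicate 2 or 3 the difference of *Sema6c* did not pass, at adjusted p = 0.0521 and 0.0558.

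Both neuropilins, the co-receptors of class 3 semaphorins and of VEGF, were lower in L-LY29. *Nrp2* had signals of 7.81, 7.33 and 7.54 in L-LY29 and of 9.19 and 9.48 in H-LY29. *Nrp1* had 8.36, 8.92 and 8.90 against 9.52 and 9.73. The doses did not overlap for either gene, where 83.1% of all genes showed no overlap. The differences were −1.77 for *Nrp2* (SE 0.18, adjusted p = 5.70e-04 by limma) and −0.89 for *Nrp1* (SE 0.20, adjusted p = 0.0117). All 6 tested neuropilin probe sets were lower, between −0.53 and −3.23, where 43.7% of all tested probe sets were lower, 29.0% higher and 72.8% called. The call on *Nrp1* ended without H-LY29 replicate 1 or 2 (adjusted p = 0.0785 and 0.123), and *Nrp2* was at −3.12 without L-LY29 replicate 1, where another probe set was the brightest.

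Plexins, the receptors that carry the semaphorin signal across the membrane, divided by their brightest probe sets into 3 higher, 3 lower and 3 not passing. Over all genes tested, 27.1% were higher and 46.6% lower, 73.8% in all. *Plxnb3*, a plexin of the B type that oligodendrocytes are known for, had signals of 9.23, 9.21 and 9.28 in L-LY29 and of 7.16 and 7.5002 in H-LY29. Every L-LY29 array was above both H-LY29 arrays. The difference was 1.91 (SE 0.12, adjusted p = 1.42e-04 by limma), and its other probe set was higher too, at 1.003. *Plxna1*, a partner of neuropilins, had 5.90, 5.90 and 6.45 in L-LY29 against 7.57 and 7.65 in H-LY29, a difference of −1.53 (SE 0.20, adjusted p = 0.00163). *Plxnd1*, the endothelial receptor of Sema3e, had 7.602, 7.64 and 7.74 against 8.27 and 8.55, a difference of −0.75 (SE 0.11, adjusted p = 0.00267). The call on *Plxnd1* ended after quantile normalization, at −0.26. *Plxnb2* was lower, at −0.59, and *Plxna3* was higher, at 0.80. *Plxnb1* was higher on its brightest probe set, at 0.41, and lower on its other, at −1.70 (adjusted p = 8.11e-04 by limma over probe sets), and the mean of both was lower, at −0.65. *Plxnb2* did not pass after quantile normalization (−0.22) or without H-LY29 replicate 1 or 2, and *Plxna3* did not without L-LY29 replicate 1 or 2 and was at 0.50 without H-LY29 replicate 1. *Plxna2*, *Plxna4* and *Plxnc1* had differences of −0.18, 0.20 and −0.23. *Plxnc1* was equal to the last digit on all 3 L-LY29 arrays, at 5.18, between H-LY29 signals of 5.91 and 4.90. Without H-LY29 replicate 1 it was called at 0.28 and without H-LY29 replicate 2 at −0.74. *Plxna4* was called higher without H-LY29 replicate 1, at 0.40, after quantile normalization, at 0.53, and with equal array medians, at 0.42, and *Plxna2* without H-LY29 replicate 2, at −0.29.

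**Figure D2:**
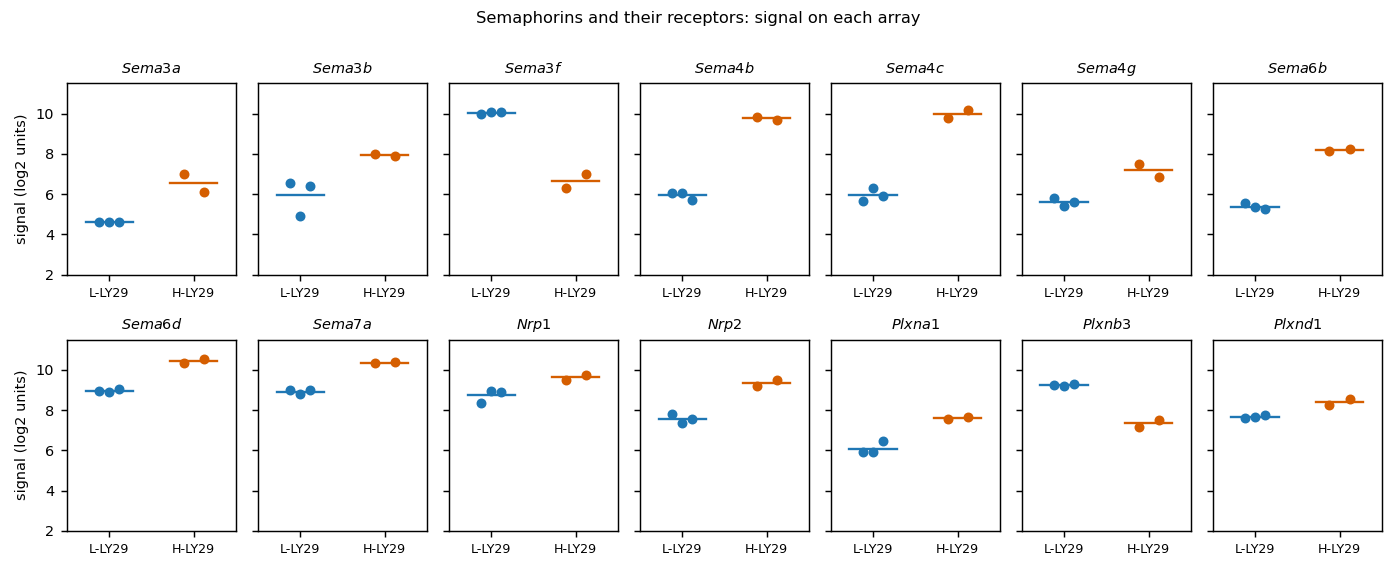
Each point is the log2 signal of 1 array and each line a dose mean, for the 14 genes among semaphorins, neuropilins and plexins that were chosen by smallest adjusted p within their family, with 3 L-LY29 and 2 H-LY29 arrays. *Sema3f* and *Plxnb3* are higher on all L-LY29 arrays, the other 12 genes are lower on all of them, and *Sema3b* spreads in L-LY29 from 4.91 to 6.55. Of all genes tested, 83.1% show no overlap between the doses.

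Eph receptors mostly did not pass the test, and neither did 3 of 4 ephrin-A ligands. All 3 ephrin-B ligands were called, where 73.8% of all genes were. Of 7 tested Eph receptors only *Epha10* was called, against 73.8% of all genes. *Epha10*, which lacks kinase activity, had signals of 7.25, 7.32 and 7.27 in L-LY29 and of 4.43 and 5.29 in H-LY29. It was higher on every L-LY29 array, by 2.42 (SE 0.26, adjusted p = 8.14e-04 by limma). The others are catalytic receptors. *Epha2* had 8.06, 7.59 and 7.62 against 7.62 and 7.58, *Ephb1* 8.26, 8.16 and 8.18 against 8.18 and 7.96, and *Ephb3* 7.20, 6.73 and 6.9997 against 6.60 and 6.9997. For each of these 3 genes the doses overlapped and shared a value equal to the last digit. Their differences were 0.16, 0.13 and 0.18, with 95% intervals of −0.28 to 0.60, −0.12 to 0.38 and −0.34 to 0.69. *Ephb4*, which marks venous endothelium, had 5.80, 5.70 and 5.80 against 6.15 and 5.96, a difference of −0.28 (adjusted p = 0.0595). The receptor calls moved with scaling: after quantile normalization *Epha2*, *Ephb1* and *Ephb3* were called higher in L-LY29, at 0.67, 0.61 and 0.69. *Ephb1* was also called without H-LY29 replicate 1, at 0.24, and *Ephb4* without H-LY29 replicate 2, at −0.38. *Epha1* was at −0.0044 (95% interval −0.42 to 0.41).

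*Epha4*, a receptor of both ephrin classes that astrocytes and axons carry, depended on the probe set. Its brightest probe set had 5.66, 5.38 and 5.57 in L-LY29 and 5.62 and 5.57 in H-LY29, a difference of −0.06 (95% interval −0.36 to 0.24). Its second had 3.92, 3.58 and 4.07 against 7.82 and 7.54, a difference of −3.83 (adjusted p = 7.24e-05 by limma over probe sets). The doses overlapped on the first and lay far apart on the second. Without any 1 of the L-LY29 arrays the second probe set became the brightest, and *Epha4* was then called at −3.69 to −3.93. The mean L-LY29 signal of that probe set, 3.86, was within the poly-A range, so these sizes are not read as folds. All L-LY29 values of the probe set were under the minimum signal, so it was tested only through H-LY29.

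Ephrin-B ligands went both ways. *Efnb2*, a ligand that marks arterial endothelium, had signals of 6.34, 6.21 and 6.49 in L-LY29 and of 8.66 and 7.83 in H-LY29, a difference of −1.90 (SE 0.27, adjusted p = 0.00198 by limma). *Efnb1* had 7.23, 6.83 and 7.02 against 8.37 and 7.88, a difference of −1.10 (SE 0.20, adjusted p = 0.00519). *Efnb3*, which oligodendrocytes carry and which inhibits axon growth, had 10.70, 10.65 and 10.67 against 9.23 and 9.41. It was the higher one in L-LY29, by 1.35 (SE 0.07, adjusted p = 9.29e-05 by limma). The doses did not overlap for any of the 3 genes, as for 83.1% of all genes. The 2 brightest probe sets of *Efnb2* and the 3 of *Efnb1* were each lower or did not pass, and the second brightest of *Efnb1* was at −0.43. The least bright of *Efnb1* had all L-LY29 values under the minimum signal and was tested only through H-LY29. Among ephrin-A ligands *Efna2* had 5.63, 5.98 and 5.62 against 8.03 and 7.93, and it was lower by both of its probe sets, at −2.24 (SE 0.15, adjusted p = 1.63e-04) on the brighter. *Efna1*, a ligand of EphA2, had 7.22, 6.64 and 7.49 against 7.59 and 7.59, and *Efna4* had 5.48, 5.23 and 5.11 against 5.11 and 4.21. Neither passed, at −0.48 (95% interval −1.16 to 0.21) and 0.62 (−0.15 to 1.38). The second tested probe set of *Efna1* was lower, at −0.51 (adjusted p = 0.0454 by limma over probe sets). *Efna4* was called without H-LY29 replicate 1, at 1.07, and with equal array medians, at 0.83. *Efna5* did not pass either, at 0.13, and was called without H-LY29 replicate 1, at 0.48, and after quantile normalization, at 0.57.

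*Slit2* and its receptor *Robo1* were both low in L-LY29, with the widest gaps of their families. *Slit2*, a secreted repellent, had signals of 6.09, 6.04 and 6.26 in L-LY29 and of 9.68 and 9.17 in H-LY29. *Robo1* had 4.09, 3.99 and 4.62 against 9.03 and 8.54. The L-LY29 arrays lay below both H-LY29 arrays for ligand and receptor, where 83.1% of all genes showed no overlap between the doses. The differences were −3.30 for *Slit2* (SE 0.18, adjusted p = 1.02e-04 by limma) and −4.55 for *Robo1* (SE 0.26, adjusted p = 1.13e-04). All L-LY29 values of *Robo1* were under the minimum signal, which it passed only through H-LY29. Their mean, 4.24, was no brighter than the brightest poly-A probe set of the H-LY29 arrays, so the size of its difference is not read as a fold. A second tested probe set of *Slit2* was lower as well, at −2.42. All L-LY29 values of that probe set were under the minimum signal, so it was tested only through H-LY29. *Slit1* had 5.63, 5.68 and 5.63 in L-LY29 against 4.92 and 4.89 in H-LY29, and *Robo4*, the Robo of endothelial cells, had 6.24, 6.23 and 6.75 against 4.75 and 5.69. Both lay higher at the low dose: *Slit1* by 0.74 (SE 0.08, adjusted p = 9.06e-04) and *Robo4* by 1.19 (SE 0.33, adjusted p = 0.0244). The call on *Robo4* ended without L-LY29 replicate 1, 2 or 3 (adjusted p = 0.0530, 0.0534 and 0.0698) and without H-LY29 replicate 1, where its difference was 0.72.

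*Ntn1*, which encodes netrin-1, and its receptor *Unc5c* were lower in L-LY29, *Unc5a* was higher, and *Unc5b* depended on the probe set. *Ntn1* had signals of 5.97, 5.82 and 6.36 in L-LY29 and of 7.16 and 7.45 in H-LY29, a difference of −1.26 (SE 0.20, adjusted p = 0.00331 by limma). *Unc5c*, which mediates repulsion by netrin-1, had 6.06, 5.62 and 6.25 against 8.50 and 8.57, a difference of −2.56 (SE 0.20, adjusted p = 2.89e-04). *Unc5a* had 5.80, 5.79 and 5.79 against 4.25 and 4.28 and was higher, by 1.53 (SE 0.08, adjusted p = 9.87e-05). No L-LY29 array overlapped with an H-LY29 array for these 3 genes, where 83.1% of all genes showed no overlap. Both H-LY29 values of *Unc5a* were under the minimum signal, so it was tested only through L-LY29. Their mean, 4.26, lay within the poly-A range, so the size of its difference is not read as a fold. *Unc5b*, a receptor of endothelial tip cells, had 8.13, 7.83 and 8.20 against 8.51 and 8.53 on its brightest probe set. It was lower there, at −0.47 (SE 0.13, adjusted p = 0.0252), and higher on another, at 1.63. The call on *Unc5b* ended without L-LY29 replicate 1 (adjusted p = 0.0506), without H-LY29 replicate 1 or 2 (0.131 and 0.139) and with either scaling alternative. *Ntn5* had 5.28, 5.404 and 5.04 against 5.404 and 5.70, and *Ntn4*, a basement membrane netrin, 5.16, 5.05 and 5.16 against 5.51 and 5.16. These did not pass, at −0.31 (95% interval −0.72 to 0.11) and −0.21 (−0.57 to 0.14). *Ntn4* was called without H-LY29 replicate 2, at −0.39.

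**Figure D3:**
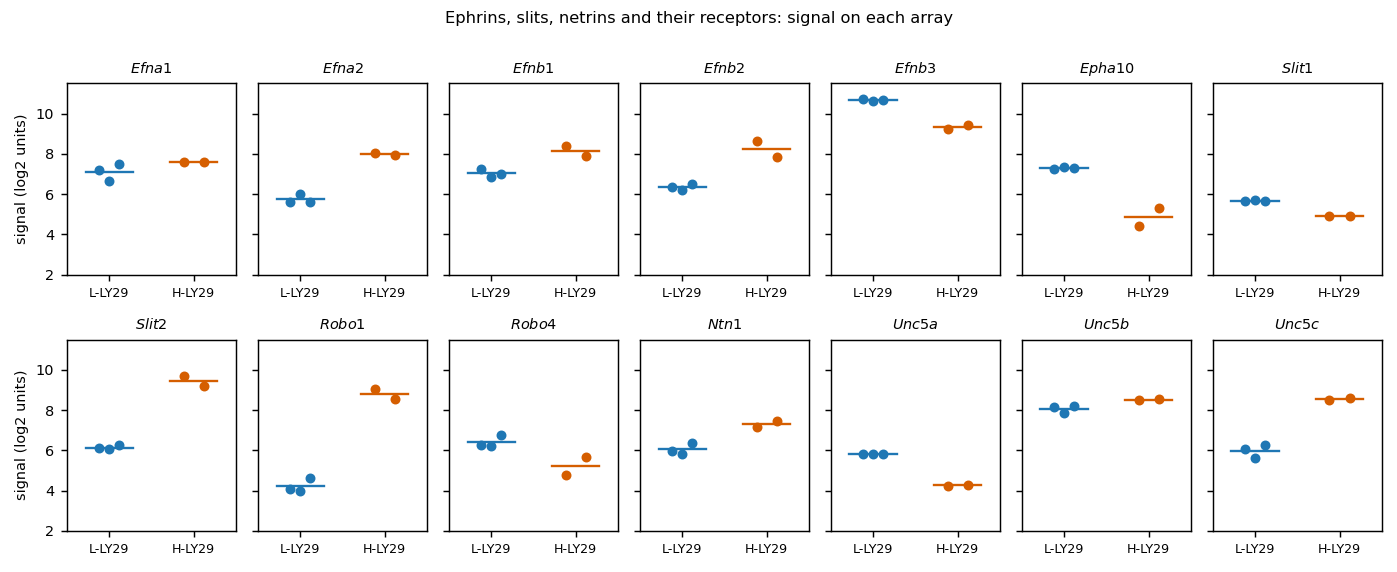
Points show the log2 signal of single arrays, and lines dose means, of 14 ephrin, Eph, slit, Robo, netrin and Unc5 genes, on 3 L-LY29 and 2 H-LY29 arrays. *Slit2*, *Robo1* and *Unc5c* are low on the L-LY29 arrays, *Efnb3*, *Epha10*, *Slit1*, *Robo4* and *Unc5a* are high on them, and *Efna1* and *Unc5b* differ little.

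The stretches just before the start sites of these guidance genes were read from RefSeq promoters of GRCm38.p6, which had a window of 250 bases before to 50 bases after the start for 59 of the 69 genes. These 59 genes had 75 windows. In the counts below, a gene was counted where any of its windows held the letters searched. Shown are the 100 bases before the start, 5′ to 3′, of the ligand and receptor pair that was low in L-LY29 and of 2 receptors that were high, with each GC box (GGGCGG on either strand) in capitals. Each stretch lies inside the annotated span of its gene, and that of *Robo1* begins at 72027518. The stretches thus precede 1 annotated start and not the outermost one.
*Slit2*, chr5:47983055-47983154, plus strand: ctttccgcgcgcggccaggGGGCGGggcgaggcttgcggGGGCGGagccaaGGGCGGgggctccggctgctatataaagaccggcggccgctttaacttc
*Robo1*, chr16:72663049-72663148, plus strand: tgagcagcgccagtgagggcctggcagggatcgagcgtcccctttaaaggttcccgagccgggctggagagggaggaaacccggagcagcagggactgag
*Epha10*, chr4:124881685-124881784, plus strand: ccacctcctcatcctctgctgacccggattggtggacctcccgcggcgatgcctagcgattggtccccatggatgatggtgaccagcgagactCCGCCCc
*Unc5a*, chr13:54949311-54949410, plus strand: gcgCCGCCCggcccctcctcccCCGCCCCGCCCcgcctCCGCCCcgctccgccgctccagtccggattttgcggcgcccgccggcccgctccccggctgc

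The 3 GC boxes of *Slit2* and the 4 of *Unc5a* stood in genes that differed in opposite directions. Over the whole windows, 45 of 59 guidance genes held a GC box (76.3%), against 49.2% of 17492 protein-coding genes, and the share was 15 of 19 among genes lower in L-LY29 and 7 of 9 among genes higher in it. A TATA box (TATAAA, either strand) was found in 2 of the 59, *Slit2* and *Efnb2*, against 14.8% of protein-coding genes. The forkhead letters TGTTTAC were searched because FoxO factors lie downstream of PI3K. They were found on either strand in 0 of the 59 genes, against 3.45% of protein-coding genes. The looser TGTTTNC, which contains them, was found in 5 (8.47%, against 20.6%). A CCAAT box was found in 32.2% of the guidance genes and in 42.3% of protein-coding genes, an E-box (CACGTG) in 8.47% and 8.91%, and an AP-1 site (TGACTCA) in 3.39% and 5.397%, each on either strand. These are matches of letters in short windows only.

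Probe sets of 1 guidance gene could differ in opposite directions. Over all 83 tested guidance probe sets, 17 were higher and 42 lower in L-LY29, beside 29.0% and 43.7% of all tested probe sets. Among the 17 guidance genes for which 2 or more probe sets were called, the calls pointed both ways in 4 (23.5%): *Sema4d*, *Sema6d*, *Plxnb1* and *Unc5b*. Over all genes this held for 43.3%. *Sema4d* had 10.88, 10.76 and 10.93 in L-LY29 and 10.59 and 10.19 in H-LY29 on 1 probe set, and 7.85, 7.97 and 7.89 against 10.48 and 10.32 on the other. All L-LY29 arrays were above both H-LY29 arrays on the first and below both on the second. *Plxnb1* had 7.78, 7.65 and 7.74 against 7.27 and 7.37 on the first, and 6.44, 6.04 and 6.49 against 8.19 and 7.87 on the second, differences of 0.41 and −1.70. Probe positions along the transcripts were not analysed here. For these 4 genes the difference of the mean of their probe sets was −1.02 for *Sema4d*, −0.18 for *Sema6d*, −0.65 for *Plxnb1* and 0.58 for *Unc5b*.

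**Figure D4:**
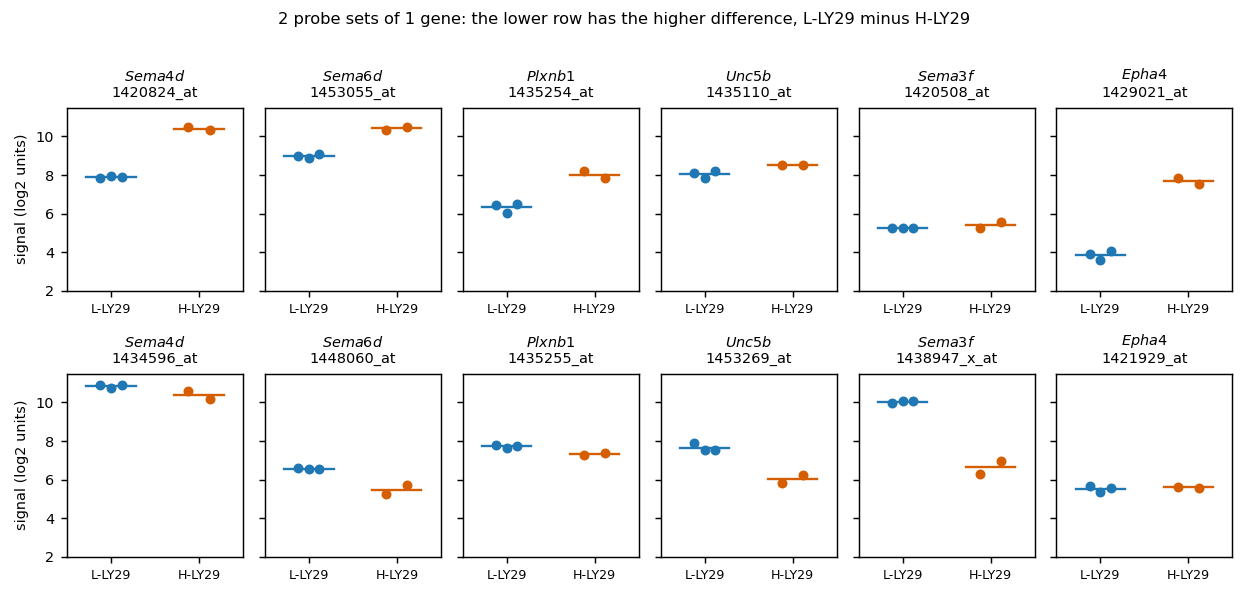
Signals in log2 units by array (points) and by dose (lines for means) of the 2 tested probe sets of 6 guidance genes, 1 gene in a column and the probe set with the more positive difference in the lower row. *Sema4d*, *Sema6d*, *Plxnb1* and *Unc5b* are lower in L-LY29 on one probe set and higher on the other, while *Sema3f* and *Epha4* are apart on one probe set and near each other on the other.

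The 16 guidance genes whose brightest probe set stayed under the minimum signal were *Efna3*, *Epha3*, *Epha5*, *Epha6*, *Epha7*, *Epha8*, *Ephb6*, *Ntn3*, *Plxna4os1*, *Robo2*, *Robo3*, *Sema3g*, *Sema5b*, *Slit3*, *Unc5cl* and *Unc5d*. The minimum was set on the mean of all 5 arrays, so it can leave out a gene that is bright at 1 dose only. *Epha3*, an EphA receptor of mesenchymal and neural cells, was such a case. One of its probe sets had 2.97, 2.59 and 2.77 in L-LY29 and 6.99 and 5.25 in H-LY29, and another 3.24, 3.15 and 3.59 against 6.02 and 4.67. On both, every L-LY29 array lay below both H-LY29 arrays. *Epha8* had 5.05, 4.90 and 4.80 in L-LY29 and 3.57 and 3.68 in H-LY29, and a probe set of *Robo3* had 3.85, 3.92 and 3.92 against 5.21 and 5.05. No call is given for these genes.

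Partners and effectors of guidance receptors, listed apart from the families above, were called about as often as all genes, 71.0% against 73.8%. Of 69 tested, 15 had more signal in L-LY29 and 34 less, and 20 did not pass, with a median difference of −0.37 against −0.26 for all genes. Lower were *Limk1*, a kinase that phosphorylates cofilin, at −4.86 (adjusted p = 4.24e-05 by limma), *Mical3*, of the family that oxidises actin below plexins, at −4.35, *Gsk3b* at −2.82 and *Arhgap39*, a GTPase-activating protein of the Slit-Robo pathway, at −2.30. The probe set of *Arhgap39* carries the suffix _x_at, so it may also bind other transcripts. The second brightest probe sets of *Limk1* and *Gsk3b* did not pass, at 0.42 and 0.27. Without H-LY29 replicate 1 or 2 another probe set of *Gsk3b* was the brightest, and its difference did not pass, at 0.12 and 0.41. Higher were *Rnd2* at 2.33, the Rac-inactivating chimaerin *Chn1* at 1.71, the Src-family kinase *Fyn* at 1.23 and *Rac1* at 1.16. *Chn1* did not pass on its second brightest probe set, at −0.21. *Neo1*, a netrin receptor of the DCC family, was lower, at −0.9995, and *Rhoa* was higher, at 0.61, the latter pair named after their values were seen.

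Markers of cell types that express guidance genes differed between the doses on the same arrays, where 27.1% of all genes were higher and 46.6% lower. Of 14 tested markers of meningeal fibroblasts 12 were lower and 1 higher in L-LY29, and their summed signal on a linear scale was 13300 to 14610 on L-LY29 arrays and 36920 to 42662 on H-LY29 arrays. Of 16 astrocyte markers 10 were lower and 1 higher, with sums of 27480 to 32789 and 42384 to 44711. Of 9 pericyte and smooth muscle markers 5 were lower and 1 higher, with 2647 to 6582 and 8352 to 9535. Most of each of these last sums was *Tagln*, which did not pass. Its signals were 12.47, 10.79 and 12.24 in L-LY29 and 12.64 and 12.93 in H-LY29. Markers of microglia mostly went the other way, 11 of 15 higher and 2 lower, with 24373 to 28162 against 15831 to 16749. Of 11 endothelial markers 5 were higher and 3 lower, with sums of 1954 to 2470 against 1552 to 1880. Of 14 markers of myelinating oligodendrocytes 8 were higher and 3 lower, with 98868 to 102720 against 77001 to 81225. Of 15 OPC markers 7 were lower, among them *Pdgfra* at −1.54, and 4 higher, among them *Olig1* at 1.55, and their sums overlapped, at 5929 to 7176 against 7103 to 7894. Markers of the ocular surface epithelium had sums of 5346 to 33336 in L-LY29 and of 371 to 427 in H-LY29. *Mbp*, *Mog* and *Gfap*, defining genes of the nerve's myelin and astrocytes, had signals over 10 on every array. Of 18 retinal and neuronal markers 7, among them the ganglion cell gene *Pou4f1*, stayed under the minimum signal, and the other 11 were all called, 8 higher and 3 lower in L-LY29, with sums of 2174 to 2462 against 1241 to 1289. The neurofilament genes *Nefl* and *Nefh* were among those higher, at 3.54 and 2.05. The 3 lower ones were *Rbpms* at −2.52, *Rlbp1* at −1.98 and *Stmn2* at −0.95. The part of cell composition in the differences of guidance genes was not tested.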

How the data were processed

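The deposited values were log2 signals of Affymetrix mouse expression arrays, which the authors' methods describe as normalised by MAS-5 in GeneSpring GX; the scaling target was not stated, and whether that algorithm made these values was not settled. They were used unchanged. GEO's platform annotation named the probe sets, and control probe sets and those with no or several genes were not tested. A probe set had to reach the 40th percentile of mean signal, 4.77, which 23456 did, and the brightest one represented its gene. For the comparison of doses, limma 3.58.1 (R 4.3.3; lmFit, then eBayes with trend; two-sided) was run over all 12935 genes, and separately over all probe sets, with Benjamini-Hochberg adjustment and calls at an adjusted p under 0.05. Intervals are those of the limma fit. The procedure was tested on simulated arrays with independent normal noise. These lacked the ties and array-wide differences seen here, which that check does not cover. Up to 3 genes in each of 13 families, taken by smallest adjusted p, and up to 4 partners or effectors in each direction are named by rule, and further ones were named after their values were seen. Members and lists were chosen with earlier results of these data known. Replicate numbers were not treated as pairs. The alternatives removed the filter or raised it to the 60th percentile, set a floor at the 10th or 30th, normalized by quantiles, equalised array medians, took the mean or the second brightest of a gene's probe sets, dropped the trend, blocked on the replicate number, left out each array, or asked also for a fold over 1.8. Leaving out the 2 symbols that are no guidance gene was chosen after seeing the data. Promoters were RefSeq windows, and Python 3.11.15 drew the figures.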

Additional observations from a re-analysis of the deposited data

How the results depend on the processing

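With 2 and 3 arrays the spread is poorly known, and signals near background have no reliable fold. Of the 35 called guidance genes, 19 kept direction and call in every alternative that gave them a value, *Slit1* lost its call only where a fold over 1.8 was also asked for, and 6 changed sign in at least 1. Among the 19 were *Sema3a*, *Robo1* and *Unc5a*, which were tested only through 1 dose. Genes of the 19 with 1 tested probe set had no value for the second brightest, and their mean of probe sets was the main value. Counts of guidance genes higher in L-LY29 fell from 12 to 7 when a fold over 1.8 was also asked for, to 7 of 32 with the 60th percentile filter, and to 5 of 24 with the second brightest probe set, where 14 were lower. Probe sets higher in L-LY29 numbered 32 of 150 with no filter and 9 of 45 with the stricter one. The median difference was −0.82 with the stricter filter, −0.0081 after quantile normalization, −0.018 with equal array medians, −0.49 with the mean of probe sets, −0.82 with the second brightest and −0.38 without H-LY29 replicate 2. Leaving out 1 array at a time gave 9 to 17 genes higher, 20 to 23 lower and medians from −0.38 to −0.17. The cause was not tested.

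Signs changed as follows. After quantile normalization *Epha4* was at 0.19, *Ephb4* at 0.075, *Efna1* at 0.052, *Plxna2* at 0.25 and *Sema3c* at 0.12. With equal array medians *Epha4* was at 0.15, *Epha1* at 0.21, *Plxna2* at 0.030, *Sema3c* at 0.070 and *Sema3e* at 0.15. The mean of probe sets gave *Unc5b* 0.58, *Plxnb1* −0.65, *Sema4d* −1.02 and *Sema4f* −1.23. The second brightest probe set gave *Sema3f* −0.17, *Sema6d* 1.09, *Unc5b* 1.63, *Chn1* −0.21, *Limk1* 0.42, *Gsk3b* 0.27, *Plxnb1* −1.70, *Sema4d* −2.50, *Sema4f* −2.55 and *Sema5a* −0.22. With 1 array left out at a time, *Ephb3* ran from −0.024 (without H-LY29 replicate 1) to 0.38, *Gsk3b* from −2.87 to 0.41, *Efna5* from −0.21 (without H-LY29 replicate 2) to 0.48, *Epha1* from −0.12 to 0.094, *Plxnc1* from −0.74 to 0.28 and *Sema4f* from −0.021 to 0.21.

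Deviations from the dose means correlated at 0.02 between the arrays numbered 1 and at 0.03 between those numbered 2. The deviations of the 2 H-LY29 arrays mirror each other, so these values cannot show whether a number marks a pair. With the replicate number as a block, the counts were 10 higher and 22 lower, *Plxnb1*, *Sema4a* and *Sema6c* did not pass (adjusted p = 0.0952, 0.0869 and 0.0835 by limma), and *Epha1* and *Sema4f* changed sign, to 0.094 and −0.021.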

Other observations

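Spread among the L-LY29 arrays was wide for *Sema3b*, at 6.55, 4.91 and 6.39, and for *Efna1*, at 7.22, 6.64 and 7.49, in both cases lowest on replicate 2. On the same arrays the summed linear signal of pericyte and smooth muscle markers, most of it *Tagln*, was 6582, 2647 and 5796. That of ocular surface epithelium markers was 33336, 5346 and 10862. Whether these move together beyond these 3 arrays was not tested.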
